A study of Mus musculus with 11 samples.

Results

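The genes described here are 10 mouse genes whose human counterparts lie at loci linked to the risk of late-onset Alzheimer's disease and are expressed in microglia: Spi1, Inpp5d, Cd33, Plcg2, Ptk2b, Bin1, Picalm, Cd2ap, Sorl1 and Abca7. They were chosen by name, as the rows of the count files that carry these symbols, and all 10 were found among the 36529 genes listed. The files hold RNA-seq counts from 11 samples of BV2 cells, an immortalised mouse microglial line labelled with the strain C57BL/6, so every group comes from 1 line. In the nApoE4 experiment, 3 samples received the amino-terminal fragment of human apolipoprotein E4 that spans residues 1 to 151 (nApoE4) at 25 µg/ml for 5 h, and 3 untreated samples (ControlA) were its controls. In the nApoE3 experiment, 2 samples received the same stretch of apolipoprotein E3 (nApoE3) at the same dose and time, and 3 other untreated samples (ControlB) were its controls. Both fragments carried a histidine tag for purification. The labels name a PBS vehicle while the study's methods describe conditioned medium for the control cells, and the sources do not settle which was used. Each fragment has its own controls, and a difference between the fragments cannot be told apart from one between the experiments. Replicates are labelled by number only, and the study's methods speak of independent measurements without naming separate cultures, so p-values measure the spread between these samples, which may be technical.

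Microglia are the resident macrophages of the brain, and many Alzheimer risk loci act in them. The products of these genes act in several processes of the cell. The transcription factor PU.1 sets the myeloid programme. At the cell surface, receptors with activating (ITAM) or inhibitory (ITIM) tyrosine motifs pass signals to kinases, to phospholipase C and to the phosphatases that oppose PI3-kinase. Clathrin adaptors, curvature proteins and sorting receptors move cargo such as the amyloid precursor protein through endosomes. Lipid transporters load membrane lipid onto apolipoproteins.

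The samples of the nApoE4 experiment held 39732710 to 44162511 counts on genes and those of the nApoE3 experiment 55809688 to 69768666. ControlA replicate 2 stood apart from the other ControlA samples: a chi-square of the counts per degree of freedom was 25.8 and 47.9 against them, and 7.85 between the other pair. For each of the risk genes named above, the log2 fold change with nApoE4 is therefore also given without it. Differences between the fragments are given without it for some of these genes only. Shares of all genes, counts and medians of gene lists, and values of single list genes are given with it. The genes with an edgeR adjusted p under 0.05 with nApoE4 numbered 8145 with it and 8827 without it. Of 12 microglia and macrophage markers, 7 were above 1 CPM (counts scaled to a TMM-adjusted library size, as in edgeR) in every sample. P2ry12 and Sall1, which mark resident brain microglia, had 3 counts or fewer in every sample. Tmem119, also such a marker, was among the 7. Its means were 2.81 CPM in ControlA, 1.42 with nApoE4, 8.55 in ControlB and 1.63 with nApoE3. Cx3cr1 and Aif1 had means of at most 0.600 CPM in any group. The summed level of the 12 was 3061 to 3346 CPM in ControlA, 2897 to 2960 with nApoE4, 2186 to 2280 in ControlB and 2381 to 2387 with nApoE3. None of 5 neuron markers and none of 4 astrocyte markers was above 1 CPM in every sample. The neuron sum was 1.97 to 2.51 CPM in ControlA, 5.32 to 6.39 with nApoE4, 1.15 to 1.52 in ControlB and 1.49 to 1.51 with nApoE3; Tubb3 alone had means of 2.097 CPM in ControlA and 5.61 with nApoE4. The astrocyte sum, in which Aqp4 was at 3 counts or fewer throughout, was 1.20 to 1.39 CPM in ControlA, 6.02 to 7.02 with nApoE4, 1.05 to 1.22 in ControlB and 4.36 to 4.53 with nApoE3. Most of it was Slc1a2, with means of 0.999, 6.43, 1.06 and 4.37 CPM in that order, while Gfap had means of at most 0.0523 CPM. The 4 oligodendrocyte markers, with Mog at the same floor, summed to 9.33 to 14.2 CPM in the nApoE4 experiment and 22.2 to 25.4 CPM in the nApoE3 experiment. Endothelial and fibroblast markers each summed to at most 1.86 CPM in any sample, with Cldn5, Col1a2 and Dcn at the floor. All samples came from the BV2 line, so the level of a marker here is not a count of cells of that type. The part of these levels in the results was not tested. In bulk samples, fewer cells that express a gene and less RNA per cell cannot be told apart.

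Per kilobase of merged exons, which allows levels of different genes to be set beside each other, Spi1 and Plcg2 had the highest levels of the 10 genes in every group and Cd33 the lowest. In ControlA, Spi1 stood at 99.3 CPM per kilobase and Plcg2 at 90.4, and the samples of these neighbours overlapped. Bin1 (21.9), Picalm (19.3), Ptk2b (13.1), Inpp5d (10.3), Cd2ap (8.09), Sorl1 (6.74) and Abca7 (4.98 CPM per kilobase) followed, with only Inpp5d and Cd2ap overlapping, and Cd33 was last at 1.96. The highest level was 50.7 times the lowest. In ControlB the order began with Plcg2 (88.5) and Spi1 (79.2 CPM per kilobase), Sorl1 stood at rank 5 with 15.1, and only Cd2ap (11.27) and Ptk2b (11.02) overlapped. With nApoE4, Spi1 reached 251 CPM per kilobase and Cd33 was at 0.724, a ratio of 347. With nApoE3, Spi1 reached 161 CPM per kilobase and Cd33 was at 0.541, a ratio of 297, and Ptk2b stood at rank 4 with 25.4. No neighbours in the order overlapped within either treated group. The places of Spi1 with nApoE4 or nApoE3, of Plcg2 in those groups and of Cd33 in every group were the same when the longest transcript replaced the merged exons, whereas 18 of the 40 places moved, including the order of Spi1 and Plcg2 in ControlB.

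**Figure D1:**
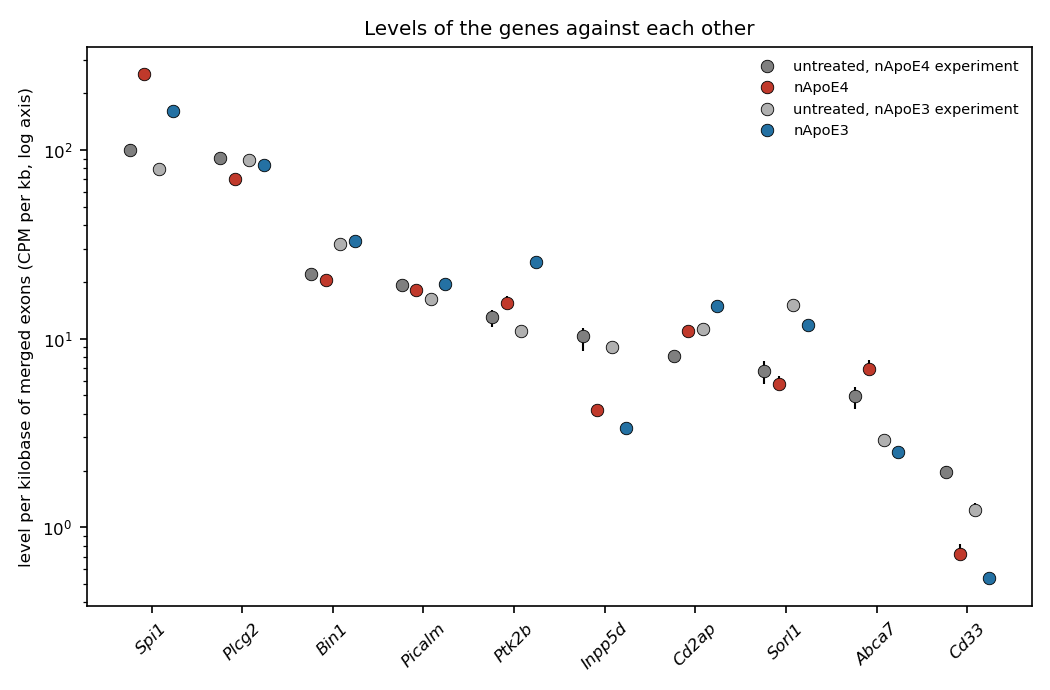
Mean level of each gene (points) in the 4 groups, in CPM per kilobase of merged exons on a log axis, with lines from the lowest to the highest sample. Spi1 and Plcg2 lie at the top in every group and Cd33 at the bottom, and Inpp5d and Cd33 with either fragment (red, blue) lie below both untreated groups (grey).

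Against their own controls, 4 of the 10 genes were higher and 3 lower with nApoE4, and 4 were higher and 5 lower with nApoE3, at an adjusted p under 0.05 in edgeR's quasi-likelihood test. Changes of this kind were common in these data: 57.2% of the 14240 genes tested were called with nApoE4 (28.6% higher and 28.6% lower) and 67.7% of 14817 with nApoE3 (33.1% higher and 34.6% lower). The share of the risk genes called, 7 of 10 and 9 of 10, is read against these backgrounds. The biological coefficient of variation, a measure of spread between replicates, was 0.0838 in the nApoE4 fit and 0.0262 in the nApoE3 fit. Smaller changes are called where the spread is smaller, so the numbers of calls do not compare the sizes of the responses. In a joint fit of all 11 samples, 9228 of 15287 genes were called with nApoE4 and 8326 with nApoE3. A fold change above 2 together with the call was reached by 3 genes with nApoE4 (Spi1, Inpp5d and Cd33; 17.7% of all genes) and by 4 with nApoE3 (the same genes and Ptk2b; 16.2% of all genes). Treated and control samples did not overlap for 8 genes with nApoE4, 4 higher and 4 lower, where this held for 63.6% of all genes (31.5% higher and 32.1% lower). With nApoE3 they did not overlap for 9 genes, 4 higher and 5 lower, beside 77.6% of all genes (38.6% higher and 39% lower). The median size of the log2 fold change was 0.41 with nApoE4 and 0.38 with nApoE3, beside 0.36 and 0.34 over all genes tested. With both fragments 7 of the genes were called, 6 of them in the same direction, where 43.6% of 13750 genes tested in both experiments were called in the same direction and 3.65% in opposite directions. Abca7 was the gene called in opposite directions and Bin1 was called with neither fragment.

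**Figure D2:**
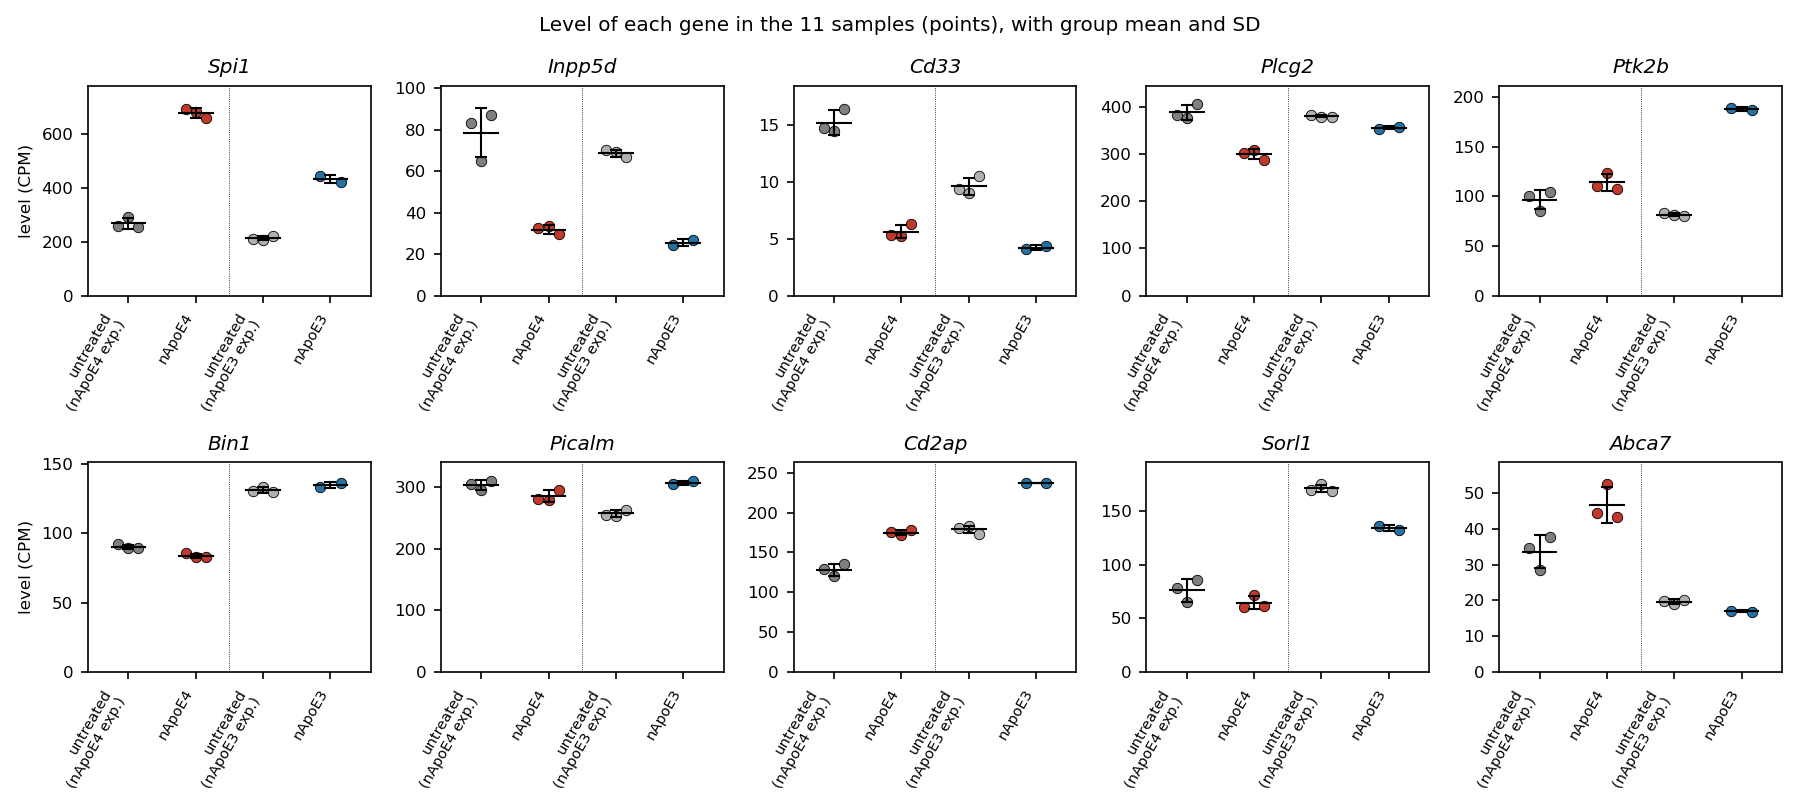
Level of each gene in the 11 samples (points, in CPM) with the group mean and SD (bars; 3 samples a group, 2 with nApoE3); the dotted line parts the experiments. Spi1 is higher, and Inpp5d and Cd33 lower, in every treated sample than in every untreated one, and Sorl1 and Bin1 are higher in every sample of the nApoE3 experiment than in every sample of the nApoE4 experiment.

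Spi1 (chr2:91082374-91115759 of GRCm38.p6, plus strand) encodes PU.1, the ETS-family factor that myeloid cells need for their identity. Its level was 259, 290.1 and 254 CPM in ControlA and 694, 680.1 and 659 CPM with nApoE4. In the nApoE3 experiment it was 211, 207 and 222 CPM in ControlB and 444 and 422 CPM with nApoE3. Every treated sample was far above every untreated sample of either experiment. Spi1 rose 2.54-fold with nApoE4 (log2 fold change 1.35, approximate standard error 0.071, edgeR adjusted p = 2.19e-07) and 2.02-fold with nApoE3 (1.01, standard error 0.031, adjusted p = 2.74e-11). Without ControlA replicate 2, which held the highest untreated level, the nApoE4 value was 1.40. A log2 fold change at least as large in size was found for 11.9% of all genes with nApoE4 and 16.4% with nApoE3.

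Inpp5d and Cd33 fell with both fragments. Inpp5d (chr1:87620312-87720510, plus strand) encodes SHIP1, the inositol phosphatase of blood cells that removes the lipid product of PI3-kinase. Its level was 83.3, 65.0 and 87.1 CPM in ControlA and 32.4, 33.5 and 29.6 CPM with nApoE4, and 70.1, 69.0 and 66.6 CPM in ControlB and 24.5 and 26.7 CPM with nApoE3. The treated samples of each experiment lay within a narrow range well under all controls, although ControlA replicate 2 was lower than the other controls. Inpp5d fell 2.46-fold with nApoE4 (log2 fold change -1.30, standard error 0.11, adjusted p = 5.57e-06; -1.42 without ControlA replicate 2) and 2.70-fold with nApoE3 (-1.43, standard error 0.042, adjusted p = 1.97e-11). Changes at least as large were found for 12.6% of all genes with nApoE4 and 9.58% with nApoE3.

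Cd33 (chr7:43527399-43537424, minus strand) encodes a sialic acid-binding receptor whose human form carries an inhibitory ITIM. The role of the mouse form was not tested here. Its counts were the lowest of the 10 genes, at 629, 647 and 767 in ControlA, 229, 217 and 251 with nApoE4, 661, 556 and 590 in ControlB and 236 and 246 with nApoE3. As levels these were 14.8, 14.4 and 16.4 CPM against 5.34, 5.22 and 6.32 CPM for nApoE4, and 9.36, 8.98 and 10.5 CPM against 4.06 and 4.36 CPM for nApoE3. No treated sample overlapped a control. Cd33 fell 2.69-fold with nApoE4 (log2 fold change -1.43, standard error 0.10, edgeR adjusted p = 1.77e-06) and 2.29-fold with nApoE3 (-1.20, standard error 0.090, adjusted p = 1.33e-07). Without ControlA replicate 2 the nApoE4 value was -1.47.

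Plcg2 (chr8:117498275-117635142, plus strand) encodes the phospholipase C that acts downstream of TREM2 and the kinase SYK and splits a membrane phosphoinositide into second messengers. It was at 383, 376 and 406 CPM in ControlA and 303, 309 and 288 CPM with nApoE4, with no overlap. In the nApoE3 experiment the gap was small but the samples still did not overlap, at 383, 379 and 379 CPM in ControlB and 353 and 358 CPM with nApoE3. Plcg2 fell 1.29-fold with nApoE4 (log2 fold change -0.37, standard error 0.063, edgeR adjusted p = 0.000762; -0.40 without ControlA replicate 2) and 1.07-fold with nApoE3 (-0.10, standard error 0.020, adjusted p = 0.000683). The nApoE3 call was not made when all 11 samples shared 1 fit (-0.10, adjusted p = 0.119).

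Inpp5d, Cd33 and Plcg2 were the 3 genes called lower with both fragments, and stretches just upstream of an annotated start of each are shown so that the letters beside their starts can be compared. GGAAGT is a sequence that ETS factors such as PU.1 bind. Forms of their site without these letters were not searched for, so a window without GGAAGT may still hold such a site. The sequences come from the RefSeq promoter table of GRCm38.p6, which held windows for 7 of the 10 genes, and run 5′ to 3′ on the strand of the gene up to the base before that start. For Inpp5d and Plcg2 it is the start of the gene as given above, and for Cd33 it is a start inside the gene. Capitals mark GGAAGT, which was searched on both strands. The windows are chr1:87620062-87620311 (plus strand, 250 bases) for Inpp5d, chr7:43533172-43533364 (minus strand, 193 bases, with 57 bases that an exon of a longer Cd33 transcript covers left out) for Cd33 and chr8:117498025-117498274 (plus strand, 250 bases) for Plcg2.
Inpp5d: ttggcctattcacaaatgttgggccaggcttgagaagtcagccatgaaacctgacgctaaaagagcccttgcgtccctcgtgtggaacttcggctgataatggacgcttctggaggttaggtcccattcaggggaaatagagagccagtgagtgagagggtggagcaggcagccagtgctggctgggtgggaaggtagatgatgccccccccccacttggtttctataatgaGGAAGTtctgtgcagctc
Cd33: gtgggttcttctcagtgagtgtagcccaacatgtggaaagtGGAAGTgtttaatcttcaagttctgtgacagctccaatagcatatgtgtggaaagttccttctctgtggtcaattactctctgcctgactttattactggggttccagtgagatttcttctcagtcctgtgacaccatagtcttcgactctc
Plcg2: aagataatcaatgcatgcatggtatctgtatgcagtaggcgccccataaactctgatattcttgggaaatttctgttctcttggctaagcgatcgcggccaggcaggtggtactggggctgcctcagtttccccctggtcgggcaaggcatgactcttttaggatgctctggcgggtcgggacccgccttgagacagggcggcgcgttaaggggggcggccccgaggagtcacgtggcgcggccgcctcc

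In the 250 bases before each annotated start, GGAAGT began 18 bases before the start of Inpp5d and 152 bases before the internal start of Cd33, was found on the other strand 97 bases before a start of Sorl1, and was not found in these windows of Plcg2, Picalm, Abca7 or Cd2ap. In Inpp5d it lay inside the longer letters GAGGAAGT, a PU.1-type site, which overlap it. Of all 32851 windows of the table, searched over the same 250 bases, 19.7% held GGAAGT and 2.44% held GAGGAAGT. No window of the 7 genes held an NF-kB type site (in 1.41% of all windows), an interferon response element of the ISRE type (2.98%) or TGANTCA, an AP-1 type site (6.75%), on either strand. A match describes letters only, and no binding was measured.

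Ptk2b (chr14:66153257-66281100, minus strand) encodes Pyk2, a calcium-responsive tyrosine kinase of the focal adhesion kinase family. Its level was 99.9, 85.7 and 105 CPM in ControlA and 110.3, 124 and 108 CPM with nApoE4, so the groups lay next to each other without overlap. In the nApoE3 experiment it was 83.3, 80.9 and 80.4 CPM in ControlB and 189.6 and 187 CPM with nApoE3, far above every control. Ptk2b rose 2.30-fold with nApoE3 (log2 fold change 1.20, standard error 0.026, edgeR adjusted p = 9.65e-13). With nApoE4 the change was 1.18-fold (0.24, standard error 0.088, adjusted p = 0.0400), a call that was lost without any of 5 of the 6 samples (adjusted p 0.0524 to 0.165), with a value of 0.15 without ControlA replicate 2 (adjusted p = 0.0604).

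**Figure D3:**
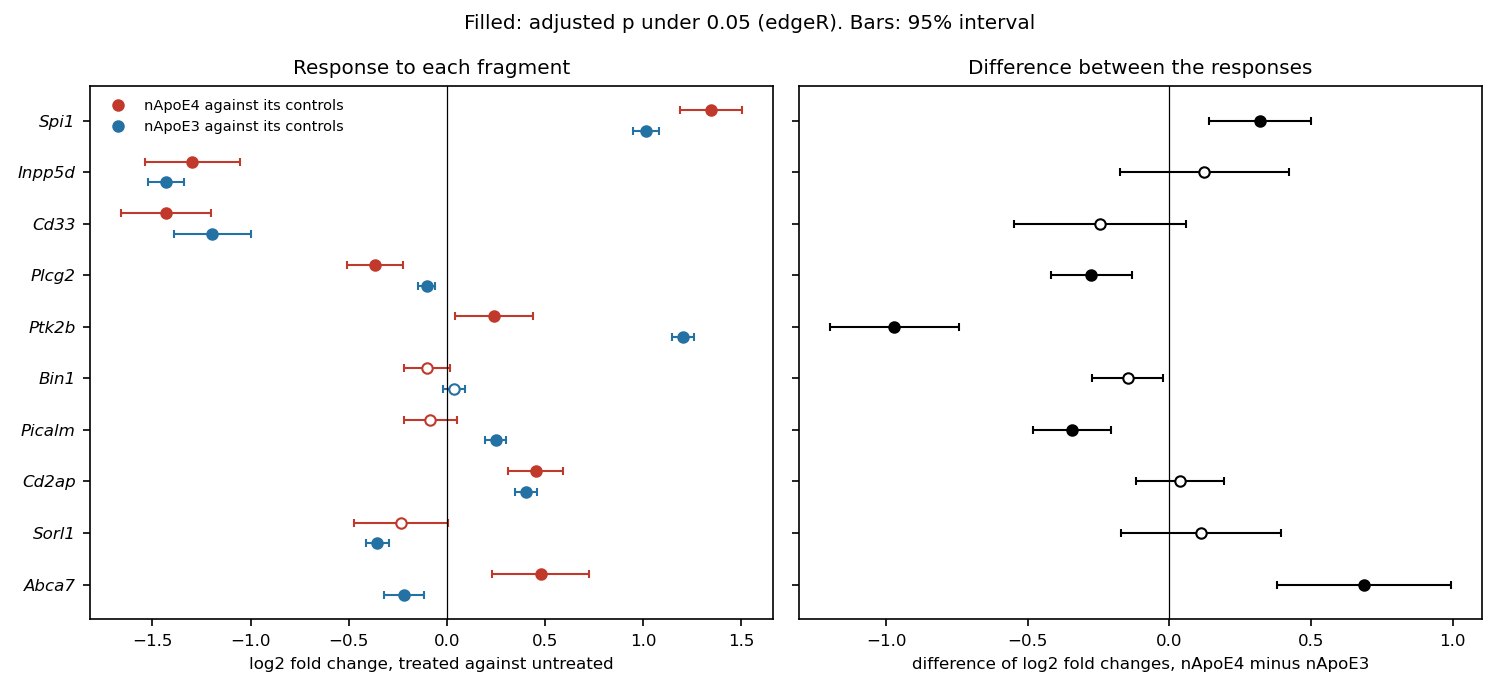
Log2 fold change of each gene with nApoE4 (red) and nApoE3 (blue) against its own controls (left), and the difference of these changes, nApoE4 minus nApoE3 (right); bars are 95% intervals, and filled points have an edgeR adjusted p under 0.05. Spi1 lies to the right and Inpp5d and Cd33 to the left with both fragments, and Ptk2b and Abca7 have the largest differences of the 10 genes.

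Of the 4 genes of endocytosis and sorting among the 10, none was past a fold change of 2 with either fragment. Bin1 (chr18:32376618-32435740, plus strand) encodes an amphiphysin-family protein that senses and bends membranes. It was at 92.0, 89.1 and 89.4 CPM in ControlA, 85.6, 82.9 and 82.7 CPM with nApoE4, 131, 133 and 129.6 CPM in ControlB and 133 and 137 CPM with nApoE3. The nApoE4 samples lay just under their controls, and those with nApoE3 overlapped theirs. The log2 fold change was -0.10 with nApoE4 (95% interval -0.22 to 0.02, edgeR adjusted p = 0.128; -0.12 without ControlA replicate 2) and 0.03 with nApoE3 (-0.02 to 0.09, adjusted p = 0.264). The nApoE4 change was called when all 11 samples shared 1 fit (-0.11, adjusted p = 0.0312). Of its exon bases, 6.22% are shared with A830052D11Rik on the other strand, and the strand setting of the counting is not stated.

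Picalm (chr7:90130192-90209447, plus strand) encodes a clathrin assembly adaptor that shapes coated vesicles. Its level was 305, 294 and 310.0 CPM in ControlA and 280.4, 278 and 295 CPM with nApoE4, which overlapped, and the change was not called (log2 fold change -0.08, 95% interval -0.22 to 0.05, adjusted p = 0.254; -0.11 without ControlA replicate 2). With nApoE3 it rose 1.19-fold, from 254, 253 and 263 CPM to 304 and 309 CPM (log2 fold change 0.25, standard error 0.024, edgeR adjusted p = 1.47e-06), with no overlap.

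Cd2ap (chr17:42748887-42876707, minus strand) encodes a scaffold that ties membrane receptors to the actin cytoskeleton and to endocytosis. It was at 129, 121 and 136 CPM in ControlA and 176, 171 and 178 CPM with nApoE4, and at 180.2, 183 and 173 CPM in ControlB and 237 and 237 CPM with nApoE3. All treated samples lay above their controls. Cd2ap rose 1.37-fold with nApoE4 (log2 fold change 0.45, standard error 0.062, edgeR adjusted p = 0.000186; 0.40 without ControlA replicate 2) and 1.32-fold with nApoE3 (0.40, standard error 0.026, adjusted p = 2.84e-08), a difference of 0.04 with a 95% interval of -0.12 to 0.19.

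Sorl1 (chr9:41964709-42124297, minus strand) encodes a sorting receptor that steers the amyloid precursor protein away from the compartments where it is cut. It was at 78.3, 64.8 and 85.8 CPM in ControlA and 60.8, 71.7 and 61.7 CPM with nApoE4, which overlapped. In the nApoE3 experiment it was at 169.7, 175 and 169 CPM in ControlB and 136 and 133 CPM with nApoE3, with no overlap. Sorl1 fell 1.28-fold with nApoE3 (log2 fold change -0.35, standard error 0.026, edgeR adjusted p = 1.24e-07). The nApoE4 value of -0.23 was not called (standard error 0.11, adjusted p = 0.0888), and leaving out ControlA replicate 2, the lowest control, gave -0.34 (adjusted p = 0.00169). Leaving out nApoE4 replicate 2, the highest treated sample, gave -0.32 (adjusted p = 0.0449). Of the exon bases of Sorl1, 1.63% are shared with Gm16214 on the other strand.

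Abca7 (chr10:79996453-80015572, plus strand) encodes an ATP-binding cassette transporter that moves phospholipid and is involved in phagocytosis. It was at 34.6, 28.5 and 37.6 CPM in ControlA and 44.3, 52.4 and 43.3 CPM with nApoE4, all above the controls. In the nApoE3 experiment it was at 19.7, 19.0 and 20.2 CPM in ControlB and 17.1 and 16.7 CPM with nApoE3, both below the controls. Abca7 rose 1.39-fold with nApoE4 (log2 fold change 0.48, standard error 0.11, edgeR adjusted p = 0.00433; 0.37 without ControlA replicate 2) and fell 1.16-fold with nApoE3 (-0.22, standard error 0.046, adjusted p = 0.00106). The nApoE3 call was not made when all 11 samples shared 1 fit (-0.21, adjusted p = 0.113).

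The responses to the fragments were compared by an interaction over the 11 samples, in which 28.3% of 15287 genes were called (14.4% higher and 13.9% lower). Of the 10 genes 2 were called higher for nApoE4 minus nApoE3 and 3 lower, and none of them was past a difference of 2-fold, beside 5.93% of all genes. Ptk2b differed most, by -0.97 on the log2 scale (standard error 0.11, edgeR adjusted p = 2.08e-05; -1.05 without ControlA replicate 2), with the larger rise with nApoE3. Abca7 differed by 0.69 (standard error 0.14, adjusted p = 0.00284; 0.58 without that sample), between a rise and a fall. Picalm differed by -0.34 (standard error 0.064, adjusted p = 0.00133) and Plcg2 by -0.28 (standard error 0.066, adjusted p = 0.00721). Spi1 differed by 0.32 (standard error 0.083, adjusted p = 0.0113), the larger rise being with nApoE4, and this call was lost without nApoE3 replicate 2 (0.28, adjusted p = 0.0758). For the other genes the difference was not called, and the 95% intervals were -0.18 to 0.42 for Inpp5d, -0.55 to 0.06 for Cd33, -0.17 to 0.39 for Sorl1, -0.12 to 0.19 for Cd2ap and -0.27 to -0.02 for Bin1. Bin1 (-0.15, adjusted p = 0.0771) was called without ControlA replicate 2 (-0.15, adjusted p = 0.0343). Because a fragment was used in each experiment alone, these differences are also differences between the experiments.

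The untreated cells of the experiments differed too. Between ControlB and ControlA 69.3% of 14249 genes were called (34.4% higher and 34.9% lower in ControlB), as were 8 of the 10 genes, with 3 higher in ControlB and 5 lower; 17.9% of all genes and 1 of the 10 were also past a fold of 2. Samples of the control groups did not overlap for 8 of the 10 genes, 3 higher and 5 lower in ControlB, and for 74.1% of all genes (38.2% higher and 36% lower). Sorl1 was 2.22-fold higher in ControlB (log2 fold change 1.15, standard error 0.093, edgeR adjusted p = 1.5e-05), beside log2 fold changes of -0.23 and -0.35 with nApoE4 and nApoE3. Bin1 was 1.44-fold higher (0.52, adjusted p = 1.38e-05) and Cd2ap 1.38-fold higher (0.46, adjusted p = 0.000112). Abca7 was 1.73-fold lower in ControlB (-0.79, adjusted p = 0.000141), Cd33 1.60-fold lower (-0.68, adjusted p = 0.000134), Spi1 1.27-fold lower (-0.34, adjusted p = 0.00119) and Picalm 1.19-fold lower (-0.25, adjusted p = 0.00107). Ptk2b was 1.20-fold lower (-0.27, adjusted p = 0.0124), a call lost without ControlB replicate 2 (adjusted p = 0.0503). Plcg2 differed by -0.05 (95% interval -0.15 to 0.06). Inpp5d differed by -0.21 (adjusted p = 0.0948), and by -0.33 without ControlA replicate 2 (adjusted p = 8.33e-06). ControlB was sequenced more deeply, and thinning the counts to the smallest library changed none of the 10 calls. This comparison uses the same control samples as the fragment comparisons.

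Other genes at risk loci or in these processes were followed in lists of related genes. Of 65 genes at other Alzheimer risk loci with enough counts to test, 14 were called higher and 22 lower with nApoE4 and 22 higher and 24 lower with nApoE3, shares of 55.4% and 70.8% beside 57.2% and 67.7% of all genes. The medians of the log2 fold changes were -0.05 and -0.06, where the medians over all genes tested were 0.0013 and -0.0026. Tnip1, a restraint on NF-kB signalling, rose from 63.5 ± 1.15 to 331 ± 14.1 CPM (SD, n = 3 each) with nApoE4, a log2 fold change of 2.39, and by 2.24 with nApoE3. Adam17, a sheddase that cleaves membrane receptors and cytokines, rose by 1.32 with nApoE4 and 1.22 with nApoE3. Adamts1, a secreted protease, went in opposite directions: it fell by 0.91 with nApoE4, from 113 ± 3.14 to 59.7 ± 3.84 CPM (SD, n = 3 each), and rose by 1.65 with nApoE3, from 44.1 ± 2.18 (SD, n = 3) to 139 ± 2.70 CPM (SD, n = 2). Maf, a myeloid transcription factor, fell by 1.73 with nApoE4 and 1.86 with nApoE3, and Aph1c, a gamma-secretase subunit, fell 4.29-fold and 3.35-fold. Mef2c, a transcription factor of microglia and neurons, fell by 1.58 with nApoE4 and 1.78 with nApoE3. Within the Ms4a cluster of membrane proteins, Ms4a7 rose by 1.42 and 1.31 and Ms4a6c by 0.74 and 1.57 with nApoE4 and nApoE3. Ms4a4a fell by 1.68 with nApoE4, and its value of -0.23 with nApoE3 was not called.

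Among close relatives of the 10 genes, 7 of 20 tested were called higher and 6 lower with nApoE4, and 5 of 22 higher and 9 lower with nApoE3. These are shares of 65% and 63.6% of the list, beside 57.2% and 67.7% of all genes. Spic, an ETS factor of the same branch as Spi1, rose from 6.91 ± 1.35 to 16.1 ± 1.49 CPM (SD, n = 3 each) with nApoE4 and from 8.17 ± 0.105 (SD, n = 3) to 49.3 ± 2.66 CPM (SD, n = 2) with nApoE3, log2 fold changes of 1.23 and 2.59. Siglece, a siglec receptor related to Cd33, rose with both fragments, opposite to Cd33. Its mean went from 1.35 to 8.08 CPM with nApoE3 (log2 fold change 2.57) and from 0.712 to 2.55 CPM with nApoE4 (1.85). Means of Siglecf fell from 0.506 to 0.267 CPM with nApoE4 and from 0.679 to 0.367 CPM with nApoE3. In the same order, Cd22 went from 0.976 to 0.457 and from 1.19 to 1.34 CPM. Siglec1 went from 19.6 to 17.0 and from 42.1 to 54.9 CPM. The remaining siglecs of the list had means of at most 0.172 CPM. Plcg1, the paralog of Plcg2, fell by 0.67 with nApoE4 and 1.06 with nApoE3 on the log2 scale. Of the other ABCA transporters, Abca9 fell by 1.28 and 1.39 and Abca2 by 0.63 and 1.00 with nApoE4 and nApoE3, whereas Abca5 rose by 0.73 with nApoE4 (0.13 with nApoE3, not called) and Abca1, which exports cholesterol to apolipoproteins, rose by 0.68 with nApoE3 (0.18 with nApoE4, not called). Sh3kbp1, the scaffold most like Cd2ap, rose by 0.46 with nApoE4 and was not called with nApoE3 (adjusted p = 0.925). The list medians were 0.06 with nApoE4 and -0.11 with nApoE3.

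Of 41 genes of the clathrin coat, endocytosis and endosome sorting, 8 were called higher and 17 lower with nApoE4, and of 40 tested with nApoE3, 11 were higher and 19 lower. Of all genes 28.6% were higher and 28.6% lower with nApoE4, and 33.1% higher and 34.6% lower with nApoE3. The medians were -0.06 for both fragments. Rin2, an activator of the endosomal GTPase RAB5, fell 2.99-fold with nApoE4 (from 66.1 ± 7.42 to 22.0 ± 1.61 CPM, SD, n = 3 each) and 3.00-fold with nApoE3. Fcho2, which starts clathrin pits, fell 1.84-fold and 1.54-fold, and Synj2, a phosphatase that helps uncoat vesicles, fell 2.07-fold with nApoE4. Rises were smaller than the fall of Rin2. Capza2, the actin-capping subunit, rose 1.37-fold and 1.28-fold, and Rab5b rose 1.37-fold with nApoE4. The clathrin adaptor subunit Ap2b1 rose 1.29-fold with nApoE3. Cd2bp2, which binds the CD2 tail and is no part of the clathrin coat, rose 1.74-fold with nApoE4. Means moved the same way with the other fragment. With nApoE3, Synj2 went from 109 to 82.5 CPM, Rab5b from 48.3 to 58.3 CPM and Cd2bp2 from 110 to 131 CPM. With nApoE4, Ap2b1 went from 116 to 145 CPM. The paralogous retromer subunits changed in opposite directions with nApoE3, where Vps26a rose 1.33-fold and Vps26b fell 1.42-fold. With nApoE4 Vps26b fell by 0.46 on the log2 scale, and the value of Vps26a, 0.04, was not called.

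Of 44 genes of ITAM, ITIM and phosphoinositide signalling, 17 were called higher and 18 lower with nApoE4 (79.5% of the list), and 17 higher and 19 lower with nApoE3 (81.8%), where 57.2% and 67.7% of all genes were called. The medians of the log2 fold changes were -0.06 and -0.05. Src, a tyrosine kinase that phosphorylates receptor tails, rose from 25.0 ± 1.15 to 189.7 ± 12.5 CPM with nApoE4 (SD, n = 3 each; log2 fold change 2.93) and from 7.96 ± 0.403 (SD, n = 3) to 86.8 ± 5.22 CPM (SD, n = 2) with nApoE3 (3.44). Pik3r5, the regulatory subunit of PI3-kinase gamma, rose by 2.57 and 2.49. Malt1, a protease of the NF-kB branch, rose by 2.68 with nApoE4 and 2.12 with nApoE3. Among the falls, Rasgrp3, a RAS activator that binds the lipid product of phospholipase C, fell by 1.97 with nApoE4 and 2.26 with nApoE3. Lat2 and Dok2, both adaptors, fell by 0.92 and 0.85 with nApoE4 and by 0.72 and 0.51 with nApoE3. Itpr3, a calcium channel opened by the soluble product of phospholipase C, fell by 0.53 with nApoE4 and 0.79 with nApoE3. Card9, an adaptor beside Malt1, went in opposite directions: it rose by 0.56 with nApoE4, from 101 ± 4.398 to 148 ± 3.79 CPM (SD, n = 3 each), and fell by 0.73 with nApoE3.

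Partners and targets of PU.1 moved in both directions. Of 28 tested, 6 were called higher and 15 lower with nApoE4 (median log2 fold change -0.29), and 15 higher and 10 lower with nApoE3 (median 0.14). Of all genes 28.6% were higher and 28.6% lower with nApoE4, and 33.1% higher and 34.6% lower with nApoE3. In the interaction 3 of the 28 were called higher and 15 lower for nApoE4 minus nApoE3, with a median difference of -0.28 beside 0.0025 over all genes, of which 14.4% were called higher and 13.9% lower. Cybb, the catalytic subunit of the phagocyte NADPH oxidase, rose from 113 ± 3.00 to 971 ± 6.61 CPM (SD, n = 3 each) with nApoE4 and by a log2 fold change of 3.11, and by 3.17 with nApoE3. Cd14, a co-receptor for lipopolysaccharide, rose by 2.75 and 3.53. Cebpb, a stress-responsive myeloid factor, rose by 1.42 with nApoE4 and 1.13 with nApoE3. Mpeg1, a pore-forming macrophage protein, rose by 1.33 with nApoE3, and its value of -0.10 with nApoE4 was not called. Irf8, a partner with which PU.1 binds DNA, fell by 1.44 and 0.94, and Cebpa, a myeloid differentiation factor, fell by 1.27 and 1.72. Tlr4, the lipopolysaccharide receptor, fell by 1.56 and 0.80, and Fcgr3, an activating Fc receptor, fell by 1.13 and 0.81.

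**Figure D4:**
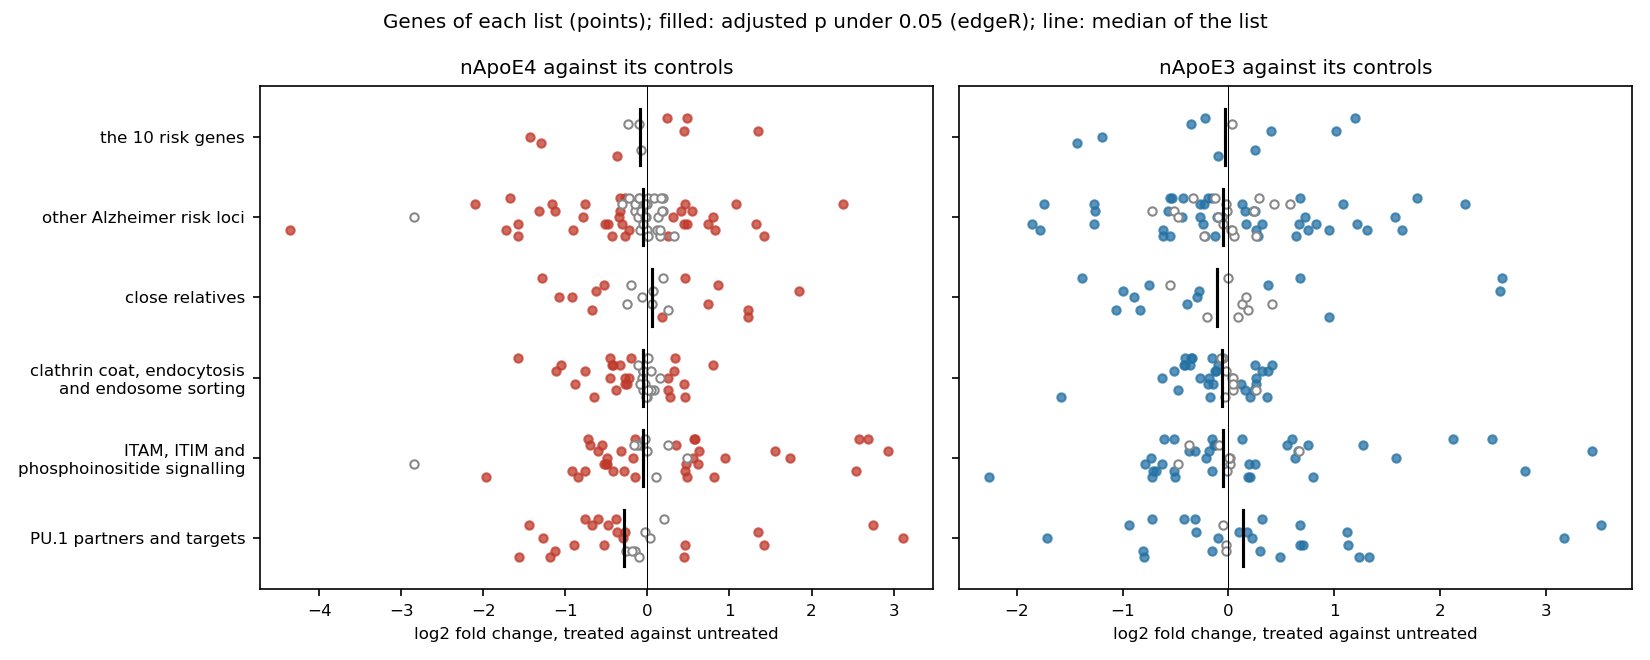
Log2 fold changes of the 10 genes and of the genes of each related list (points; filled where the edgeR adjusted p is under 0.05) with nApoE4 (left) and nApoE3 (right); vertical bars are list medians. The medians lie within 0.29 of 0 in every list, and genes that rose and genes that fell stand side by side within each; in the clathrin and endosome list the called rises are smaller than its largest fall.

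For each of the 10 genes the gene with the most similar pattern of log2 CPM over the 11 samples was found among the 8840 or 8841 other genes with a mean of at least 10 CPM. The samples share 4 group levels and an experiment, so the coefficients describe those levels and carry no test. Pearson's r was 0.998 between Spi1 and Mocs1, 0.997 between Inpp5d and Adcy7, 0.994 between Cd33 and Reps2 and 0.992 between Plcg2 and Gnptab. It was 0.991 between Ptk2b and Trim25, 0.997 between Bin1 and Ppp2r1b, 0.995 between Cd2ap and Ankrd13c and 0.997 between Sorl1 and Ahcyl2. Abca7 was nearest to Leng8 at 0.996, and Picalm had the lowest value, 0.941 with Basp1.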

How the data were processed

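RNA-seq was performed on 11 BV2 samples, with single-end reads. According to the submitters' processing notes and the study's methods, the authors trimmed adapters with Trim Galore 0.5.0, checked quality with FastQC 0.11.8, mapped reads to GRCm38.p6 with HISAT2 2.1.0 and counted them on genes with HTSeq 0.11.0. They deposited raw counts per gene symbol without normalization. The annotation release, strand setting and overlap mode are not given in the sources used here, so genes that share exon bases may share counts. Of the tallied reads, 76.0 to 77.7% were counted on genes, and the tallies of other reads were left out. Depth covers counting error only, and 3 counts were taken as a floor.

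Samples were grouped by title. The study's methods describe averages of 3 independent measurements, whereas 2 nApoE3 samples were analysed here. Treated samples were tested against the controls of the same experiment in R 4.3.3 with edgeR 4.0.16 (filterByExpr, TMM, quasi-likelihood F test, Benjamini-Hochberg adjustment over all genes, call at an adjusted p under 0.05), and the fragments were compared as an interaction over 4 group means. Standard errors and 95% intervals derive from the F statistic and are approximate. No replicate block was used, since same-numbered samples did not deviate together. The code was tested on simulated data. Levels per kilobase used merged exons of GENCODE M21 for GRCm38, and positions come from RefSeq for GRCm38.p6, in which 33061 of the 36529 symbols were found. All 10 genes are named throughout. From each related list up to 3 genes per direction and fragment are named, by the largest change among genes called, with at least 5 CPM in a group and the same sign in every treated sample. The genes and lists were chosen with earlier results of these data known. A few list genes and 1 marker list are not reported here. Of the list symbols, Tspoap1 and Ankh were not listed. Abca1, Trem2, Blnk and Btk stand in more than 1 list. Alternatives were DESeq2 1.42.0, its size factors in edgeR, filters of at least 1 count or 10 counts per sample, a joint fit of the 11 samples, a replicate block, thinning to the smallest library, the longest transcript as gene length, and leaving out each replicate. Windows upstream of gene starts were those of the RefSeq table of 27025 genes.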

Additional observations from a re-analysis of the deposited data

Results flagged for a closer look

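The responses of 5 genes differed between the fragments by the interaction test over the 11 samples (edgeR, adjusted p under 0.05), where 28.3% of all genes did. The difference of the log2 fold changes, nApoE4 minus nApoE3, was -0.97 for Ptk2b, with treated samples above their controls in both experiments. It was 0.69 for Abca7, with all 3 nApoE4 samples above and both nApoE3 samples below their controls. It was -0.34 for Picalm, where only the nApoE3 change was called. It was 0.32 for Spi1 and -0.28 for Plcg2, each changed in the same direction by both fragments. Fragment and experiment cannot be told apart in these differences.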

How the results depend on the processing

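For the 10 genes, 261 values recomputed under other settings kept their direction and their side of the threshold, 4 gained a call and 5 lost it. With a replicate left out, 268 kept both, 4 gained a call, 7 lost it and 1 turned its sign. For the named list genes, all 420 and 330 such values kept both. These cover a gene only with the fragment where it was among the largest called changes of its list. Other printed values of list genes, such as those of Adamts1 and Card9 with nApoE4, were not in this tally. With all 11 samples in 1 fit, 5 of the 10 genes were called lower with nApoE4 (3 in the separate fit, with Bin1 and Sorl1 added) and 3 lower with nApoE3 (5 in the separate fit, without Plcg2 and Abca7). Same-numbered samples of an experiment had deviations that correlated at -0.039, -0.17 and -0.062 in the nApoE4 experiment, so the numbers did not pair them. The replicate block moved the genes called in the interaction from 4331 to 2307, left 1 of the 10 genes called higher there (2 without it), and lost the calls of Spi1 (0.29, adjusted p = 0.0941) and Plcg2 (-0.27, adjusted p = 0.116) there and of Ptk2b with nApoE4 (0.24, adjusted p = 0.102). Leaving out each replicate gave 3 to 4 genes higher and 3 to 4 lower with nApoE4, 4 and 5 with nApoE3, 1 to 2 higher and 3 to 4 lower in the interaction, and 3 higher and 4 to 6 lower between the controls. The Cd2ap difference turned from 0.04 to -0.0036 without ControlA replicate 2 (adjusted p = 0.97), within a range of -0.0036 to 0.079 over the samples left out. Sorl1 with nApoE4 was called with genes of at least 1 count (-0.25, adjusted p = 0.0301), and the Bin1 difference with DESeq2 (-0.15, adjusted p = 0.0272).

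With the longest transcript as length, the place of a gene in the order of levels became 4 for Bin1, 3 for Picalm, 7 for Inpp5d and 6 for Cd2ap in ControlA. It became 4 for Bin1, 3 for Picalm, 8 for Inpp5d, 9 for Sorl1, 6 for Ptk2b and 5 for Cd2ap with nApoE4. It became 5 for Picalm, 2 for Plcg2, 7 for Sorl1, 1 for Spi1, 6 for Ptk2b and 4 for Cd2ap in ControlB, and 6 for Picalm and 5 for Cd2ap with nApoE3. The cause was not tested for any of these. With 2 nApoE3 samples, the spread of that group rests on 1 pair.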

Other observations

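Trem2, the microglial receptor that signals through Plcg2 and is itself at a risk locus, was at 60.5 CPM in ControlA replicate 1 and at 2.50 and 1.33 CPM in the other ControlA samples. It was at 1.19, 5.29 and 2.44 CPM with nApoE4, at 0.736, 0.808 and 0.621 CPM in ControlB and at 0.670 and 0.372 CPM with nApoE3. The level in ControlA replicate 1 came from 2578 counts, where no other sample held more than 220. Its change with nApoE4 was not called (log2 fold change -2.84, edgeR adjusted p = 0.0752).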
